A study of Homo sapiens with 16 samples.

Results

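The genes described here are 10 heat shock chaperones: HSPA8, HSPA1A, HSPA1B, DNAJB1, HSPH1, HSP90AA1, HSP90AB1, HSPB1, HSPD1 and HSPE1. They were chosen by name, with earlier results of these data known, among the 28207 human genes of the tables, and all 10 were present. Of these, 7 were abundant enough to be tested, among 4632 whose mean reached 50 CPM, the reads scaled to a fixed total per library. HSPA1A, HSPA1B and HSPE1 lay under that level and are given by their reads.

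Chaperones bind unfolded proteins and keep them from aggregating until they fold. HSP70 proteins work in cycles of ATP hydrolysis that are started by J-domain partners such as DNAJB1 and reset by exchange factors such as HSPH1, and they pass some of their clients on to HSP90. Some members, such as HSPA8 and HSP90AB1, are made in all cells, while HSPA1A and HSPA1B are the classic genes switched on by heat through the transcription factor HSF1.

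The cells were U2OS, established from a human bone tumour (osteosarcoma), and 16 libraries were made from their total RNA. The genotype given for a library joins 1 of 4 numbers (zdna1, zdna2, zdna3 or zdna4) to either CC or CL, here called its arm. Every one of the 8 combinations has 2 replicates. Neither the numbers nor the arms are spelled out, and no agent, time or clone is given, so no group is called a control and arms are compared as CL over CC. The title of the series names MYC, FACT and Z-DNA, a double helix that winds to the left. The labels do not say whether replicates came from separate cultures, so the spread behind the p-values may be technical.

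Libraries held 39335 to 310187 human-gene reads (median 121512), and 1 read stood for 3.22 to 25.4 CPM. An added reference sequence that belongs to each number took 0.326% to 87.7% of all assigned reads, with the highest share in zdna3 CC. Reads of 401 olfactory receptor genes, silent in most tissues, summed to 1449 and 1492 CPM in the zdna4 CC libraries and to 55.3 to 396 CPM in the other 14. The zdna4 CC libraries were also the shallowest, with 39335 and 40886 reads. Their part in the zdna4 results below was not tested. Of 7 mesenchymal and bone markers, VIM (1593 CPM over all libraries), FN1 (1669), SPARC (804) and COL1A1 (881) were abundant, RUNX2 lay at 27.8 CPM with COL1A2 below it, and TWIST1 was at 0. Markers of epithelium, blood, liver, endothelium and glia (EPCAM, CDH1, PTPRC, ALB, PECAM1 and GFAP) lay between 0.358 and 10.9 CPM.

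The sequences just before the starts of these genes show what they share. RefSeq lists 16 start windows for the 10 genes on GRCh38.p14, and the 250 bases before each start were searched on both strands. A heat shock element, the site bound by HSF1, was searched as GAANNTTC followed directly by NNGAA, or as its reverse complement. It matched in 4 of the 16 windows, 1 each of HSPA8, HSP90AA1, HSP90AB1 and HSPD1, against 0.441% of 35116 windows of all genes. Its shorter form GAANNTTC, which lies inside every longer match, was found in 8 of the 16 windows, of 8 different members, against 5.78% of windows of all genes. HSPH1 and HSPE1 held neither. Windows are shown for HSPA8, HSP90AA1 and HSPB1, whose RNA differed between the numbers, and for HSPA1A as a classic heat-inducible gene. All are written 5′ to 3′ on the strand of the gene, end at the base before the start, and carry matches to either form in capitals. They lie at chr11:123062137-123062386 (minus strand), chr14:102087045-102087294 (minus), chr7:76302423-76302672 (plus) and chr6:31815293-31815542 (plus).
HSPA8: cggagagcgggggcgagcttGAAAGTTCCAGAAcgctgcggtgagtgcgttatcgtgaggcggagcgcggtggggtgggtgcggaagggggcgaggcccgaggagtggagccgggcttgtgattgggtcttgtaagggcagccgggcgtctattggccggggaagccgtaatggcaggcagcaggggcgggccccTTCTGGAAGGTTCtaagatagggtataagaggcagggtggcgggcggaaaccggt
HSP90AA1: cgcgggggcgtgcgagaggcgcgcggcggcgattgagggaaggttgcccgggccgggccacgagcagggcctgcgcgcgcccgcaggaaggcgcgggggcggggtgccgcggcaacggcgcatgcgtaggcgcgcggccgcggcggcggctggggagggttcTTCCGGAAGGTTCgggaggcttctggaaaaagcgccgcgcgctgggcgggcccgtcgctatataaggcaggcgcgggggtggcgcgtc
HSPB1: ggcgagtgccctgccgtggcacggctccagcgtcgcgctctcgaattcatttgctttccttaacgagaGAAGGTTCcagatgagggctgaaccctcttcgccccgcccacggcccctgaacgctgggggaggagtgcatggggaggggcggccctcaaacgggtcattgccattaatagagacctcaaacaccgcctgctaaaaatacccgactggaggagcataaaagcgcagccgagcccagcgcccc
HSPA1A: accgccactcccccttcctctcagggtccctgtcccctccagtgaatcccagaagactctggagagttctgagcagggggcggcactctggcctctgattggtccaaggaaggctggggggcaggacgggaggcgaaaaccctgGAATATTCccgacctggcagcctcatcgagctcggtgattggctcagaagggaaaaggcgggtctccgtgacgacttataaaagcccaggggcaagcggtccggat

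The HSPA8 window held 2 full elements, whose first bases lay 230 and 55 bases before the start. The HSP90AA1 window shown, the second of 2 listed for the gene, held 1, at 88 bases, and the other window held neither form, while those of HSPB1 and HSPA1A held only the shorter form, at 182 and 106 bases. Further motifs were searched on both strands. CCAAT matched in 7 of 16 windows (32.0% of all windows), TATAAA in 2, those of HSPA1A and HSPA1B (10.7%), CGCGCG in 6 (14.1%) and CACACA in 2 (14.3%). CACGTG, the E-box bound by MYC and other factors, matched in 2 of 16, of HSPD1 and HSPE1 (6.35%). These 2 genes lie head to head and their windows overlap, so this is 1 and the same site. A match is a run of letters and no measure of binding.

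**Figure D1:**
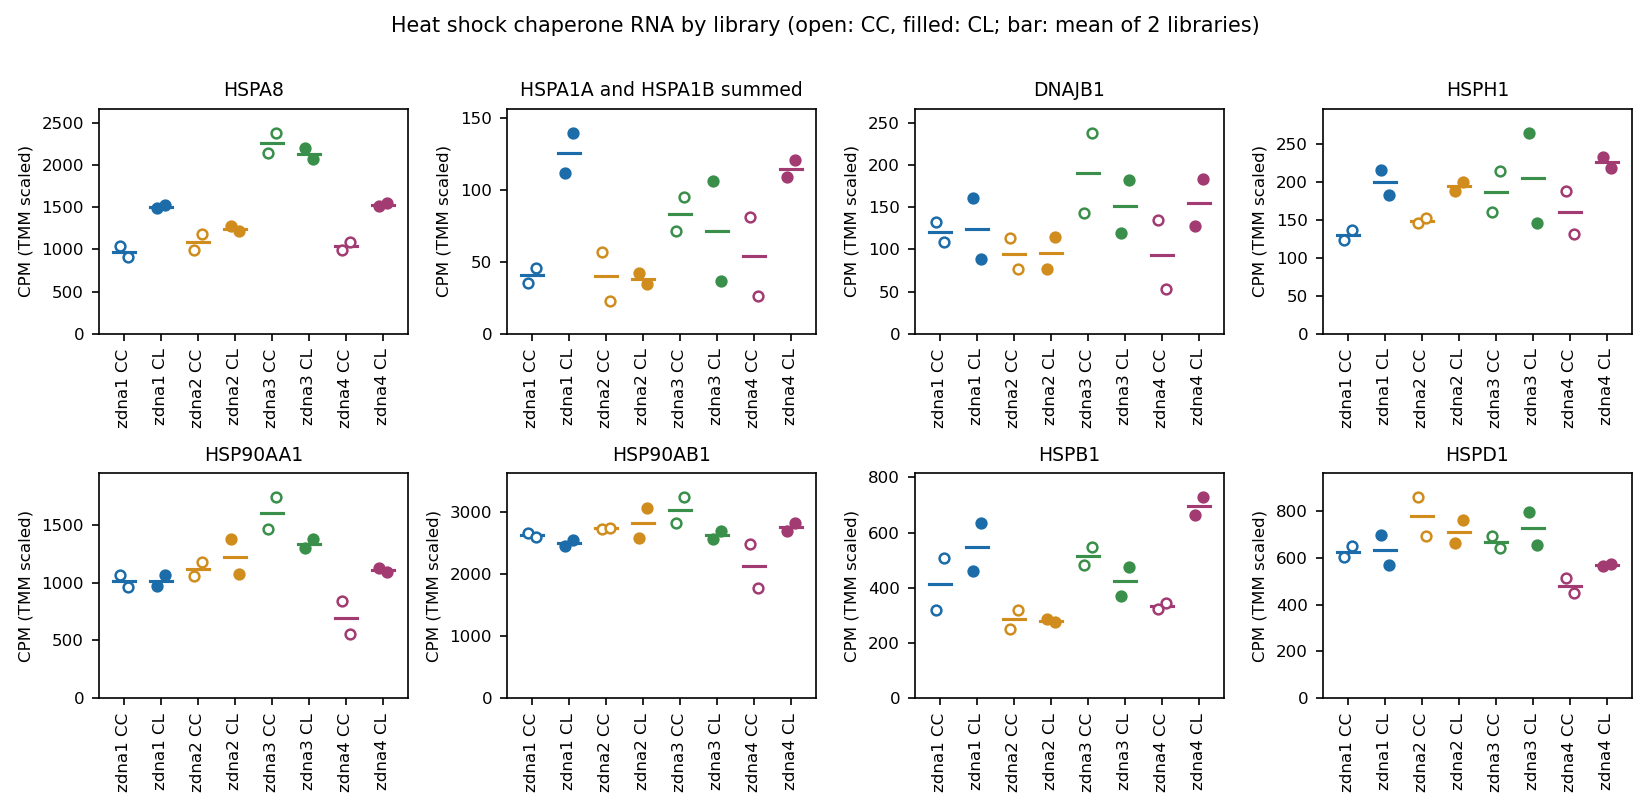
RNA level of the chaperones in each of the 16 libraries, in CPM on a linear axis from 0; open points are CC, filled points CL, and the short bars are means of 2 libraries. HSPA8 lay at or above 2068 CPM in the 4 zdna3 libraries and at or below 1549 CPM in the other 12. On the scale of the deposited values the differences of zdna3 from the other numbers, averaged over the arms, turned round, though not relative to the median gene.

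Per kilobase of exon, HSP90AB1 was on average the most abundant member, with 876 ± 103 RPKM (mean ± SD, n = 16 libraries), and HSPA1B the least, with 9.20 ± 6.20. In zdna3 HSPA8 lay beside HSP90AB1 in CC (998 against 999 RPKM) and above it in CL (943 against 867). Over all libraries HSPA8 followed HSP90AB1 at 651 ± 212 RPKM, and the next was HSPB1 at 562 ± 191 RPKM, which did not differ from HSPA8 beyond their spread. HSP90AA1 (289 ± 69.4 RPKM) and HSPD1 (275 ± 44.4 RPKM) formed a second tier and did not differ beyond their spread either. Below them came DNAJB1 (47.2 ± 17.2 RPKM), HSPH1 (31.7 ± 7.18), HSPE1 (22.7 ± 21.1) and HSPA1A (19.9 ± 12.8), each within its neighbour's spread. The value of HSPE1 is a lower limit of its level, because 40.6% of its exon bases also belong to the readthrough gene HSPE1-MOB4 and reads that touch 2 genes are left out by the counter's default. Those of HSPA1A and HSPA1B are lower limits too, since reads from bases that both share do not align uniquely, so the order among the lowest members is uncertain. Levels come from bulk RNA, in which fewer cells of a kind and less RNA per cell cannot be told apart.

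In sum, the 10 genes took between 0.408% and 0.899% of the human-gene reads of a library. The share was lowest in zdna4 CC, with 0.526% (95% exact interval 0.457% to 0.603%) and 0.408% (0.349% to 0.475%) in its replicates. It was highest in zdna3 CC, with 0.804% (0.731% to 0.882%) and 0.899% (0.811% to 0.993%). Group means were 0.609% in zdna1 CC and 0.665% in zdna1 CL, 0.659% and 0.690% in zdna2, 0.851% and 0.745% in zdna3, and 0.467% and 0.718% in zdna4. The shares thus stood higher in CL than in CC in zdna1, zdna2 and zdna4 and lower in zdna3, with no overlap of the libraries' values in any of the 4 numbers. But counting intervals of the nearest libraries overlapped in zdna1, zdna2 and zdna3, and not in zdna4. In zdna2 they were 0.627% to 0.718% (CC replicate 2) and 0.636% to 0.723% (CL replicate 1). Over the tested genes alone the group means ran from 0.623% in zdna4 CC to 1.02% in zdna3 CC, in the same order at both ends. An exact two-sided permutation test of 2 against 2 libraries cannot give a p below 0.333, so no test is given for the shares.

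**Figure D2:**
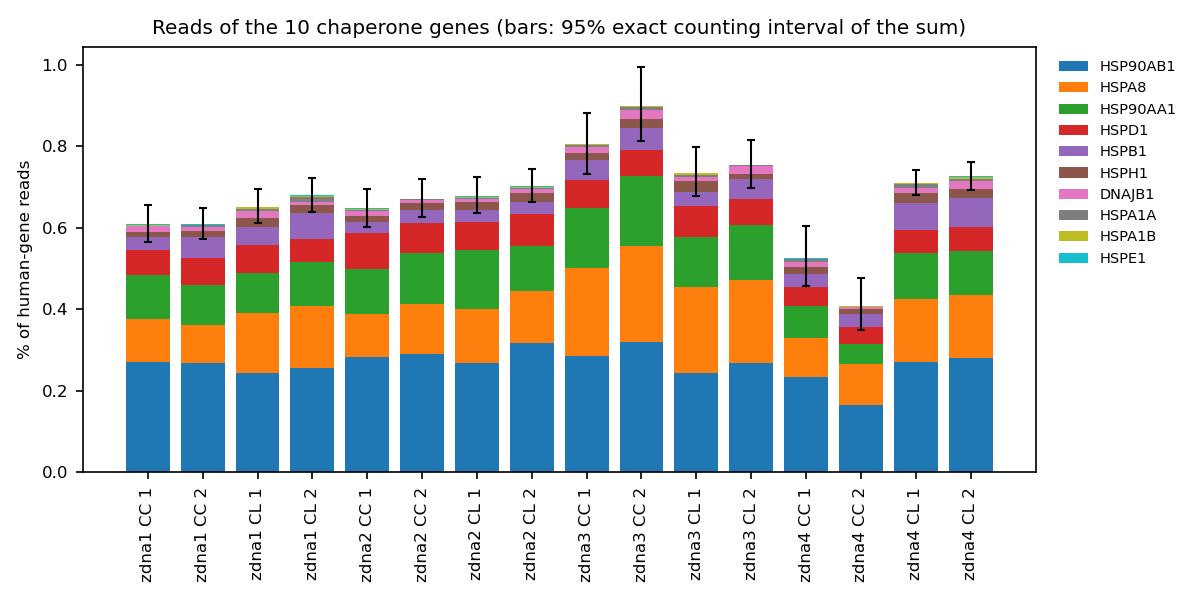
Reads of the 10 chaperone genes as a percentage of human-gene reads, 1 bar per library, stacked by gene, with the 95% exact counting interval of the sum. The sum ran from 0.408% in zdna4 CC replicate 2 to 0.899% in zdna3 CC replicate 2, and HSP90AB1 and HSPA8 made up the largest parts.

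HSPA8, the constitutive HSP70 of the cytosol that also strips clathrin from vesicles (hg19 chromosome 11, 122928197 to 122932844, minus strand), was the member with the clearest differences. In zdna1 it stood at 1037 and 912 CPM in CC and at 1494 and 1521 CPM in CL. In zdna2 the values were 998 and 1184 CPM in CC and 1277 and 1214 CPM in CL. The arms of zdna1 and of zdna2 did not overlap, but the gap was wide only in zdna1. In zdna3 HSPA8 reached 2140 and 2381 CPM in CC and 2201 and 2068 CPM in CL, where the arms overlapped. In zdna4 it stood at 998 and 1083 CPM in CC and at 1514 and 1549 CPM in CL, again without overlap. A separation of 2 against 2 libraries has by itself an exact two-sided permutation p of 0.333. The share of all tested genes with such a separation was not counted, here or below.

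CL over CC within zdna1 asks what differs between the arms with the number held. HSPA8 rose by 0.63 on the log2 scale (SE 0.106, adjusted p = 1.09e-04, limma), or 1.54-fold. It was the 1 called member of 7 tested, where 0.756% of all tested genes were called. Log2 differences here are of CPM plus 10, and called means a Benjamini-Hochberg adjusted p under 0.05 over all tested genes. The call was kept under each of the 14 alternatives run, with adjusted p from 4.56e-05 to 0.0295 and log2 differences that included 0.56 without zdna1 CC replicate 2 and 0.79 on the scale of the deposited values. In the same libraries HSP90AB1 lay at -0.07 (95% interval -0.25 to 0.11) and HSP90AA1 at 0.01 (-0.24 to 0.26).

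In the other numbers HSPA8 was not called between the arms. The difference was 0.19 (95% interval -0.02 to 0.41, adjusted p = 0.845) in zdna2, -0.08 (-0.43 to 0.26, adjusted p = 0.999) in zdna3 and 0.55 (0.21 to 0.90, adjusted p = 0.0938) in zdna4. On the deposited scale the zdna3 value turned to 0.74, on which the median gene stood at 0.72. Averaged over the 4 numbers HSPA8 rose by 0.32 (SE 0.0718, adjusted p = 0.0136), again the 1 member of 7 called, against 0.432% of genes. That call was lost without the zdna4 libraries (0.24, adjusted p = 0.349), without zdna2 CC replicate 1 (adjusted p = 0.0572), without zdna3 CL replicate 1 (adjusted p = 0.0699) and without zdna4 CC replicate 1 (adjusted p = 0.0862). The test that the 4 arm differences are equal called 0 of 7 members with limma, against 0.864% of genes. Its unadjusted p was under 0.05 for 4 members, and for 483 of the 4632 tested genes. For HSPA8 its adjusted p was 0.128 by limma, 0.0303 by edgeR and 0.0973 by DESeq2, so the call depends on the tool, and the test does not single out 1 number.

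Among the numbers, averaged over the arms, HSPA8 stood apart in zdna3. Its mean was 2198 ± 134 CPM there (SD, n = 4) against 1241 ± 312 in zdna1, 1168 ± 120 in zdna2 and 1286 ± 286 in zdna4. The test of any difference among the numbers gave an adjusted p of 2.92e-09. In the limma fit on CPM, HSPA8 was higher in zdna3 than in zdna1 by 0.85 (SE 0.101, adjusted p = 1.18e-08). It was also higher in zdna3 than in zdna2, by 0.91 (SE 0.102, adjusted p = 1.27e-09). In zdna4 it was lower than in zdna3, at -0.79 (SE 0.122, adjusted p = 6.02e-06). The median gene stood at -0.05, -0.04 and -0.01 in these 3 comparisons. But on the deposited scale the 3 differences of HSPA8 were -0.80, -0.62 and 0.81. On that scale the median of all tested genes itself moved by -1.48, -1.36 and 1.38, and relative to it HSPA8 lay at 0.68, 0.73 and -0.57. Between the arms that median moved by 0.15 in zdna1, 0.43 in zdna4 and 0.34 on average. In CL alone the zdna3 differences over zdna1 and zdna2 were 0.50 (adjusted p = 0.0144) and 0.77 (adjusted p = 2.27e-05), and in CC alone 1.21 and 1.05 (adjusted p = 2.54e-07 and 1.16e-05). No pair among zdna1, zdna2 and zdna4 was called for HSPA8, with differences from -0.06 to 0.12 and adjusted p of at least 0.653, except that zdna4 CL lay above zdna2 CL by 0.30 (adjusted p = 0.0233) when CL was taken alone.

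A ratio of reads of 2 genes in 1 library needs no scaling factor. There were 0.370 ± 0.0277 HSPA8 reads per HSP90AB1 read in zdna1 CC and 0.602 ± 0.00878 in zdna1 CL (mean ± SD, n = 2). The ratio was 0.398 ± 0.0456 and 0.446 ± 0.0705 in zdna2, 0.747 ± 0.0171 and 0.813 ± 0.0667 in zdna3, and 0.507 ± 0.148 and 0.555 ± 0.0101 in zdna4, for CC and CL. The 4 zdna3 libraries thus held the highest ratios, and zdna1 was the number whose arms lay farthest apart. In zdna4 the CC replicates straddled the CL ones. They rested on 37 and 41 HSPA8 reads, with 95% counting intervals of 0.267 to 0.595 and 0.404 to 0.916. Whether the ratio differed between the zdna4 arms cannot be read from them.

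**Figure D3:**
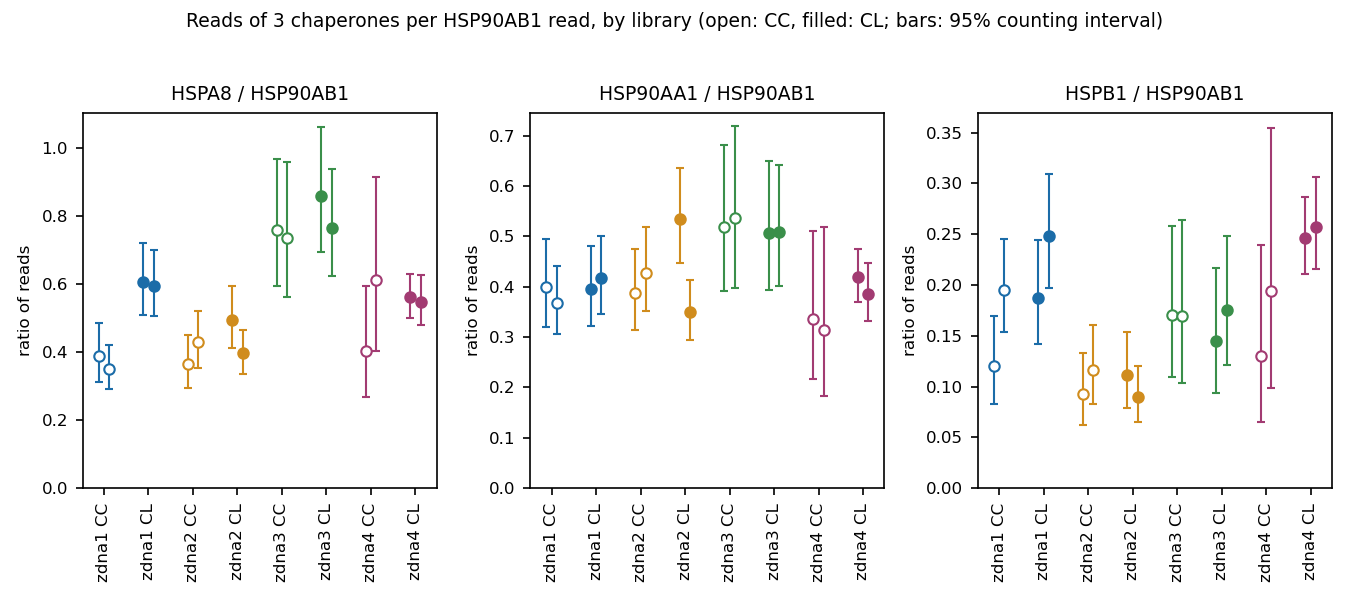
Reads of HSPA8, HSP90AA1 and HSPB1 divided by reads of HSP90AB1 in the same library, on linear axes from 0; open points are CC, filled points CL, and bars are 95% counting intervals. The HSPA8 ratio is highest in zdna3 (group means 0.747 and 0.813), and the HSPB1 ratio lowest in zdna2 (0.104 in CC, and lower in CL).

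HSPA1A (hg19 chromosome 6, 31783320 to 31785719, plus strand) and HSPA1B (chromosome 6, 31795515 to 31798031, plus strand) encode nearly the same heat-inducible HSP70. Their transcripts were 95.3% identical over aligned bases, with 1 identical run of 1715 bases, so their reads cannot be fully told apart and are also given as a sum, which is a lower limit where reads of the shared run were left out. HSPA1A had 0 to 25 reads per library and HSPA1B 0 to 11. Summed over the pair, zdna1 CC gave 4 and 8 reads and zdna1 CL 16 and 22, or 35.5, 45.6, 112 and 139 CPM. The CL over CC ratio of pooled reads was 2.96 (12 against 38 reads, 95% counting interval 1.51 to 6.22), without overlap of the libraries. As 1 feature in the fit the pair lay at 1.42 (SE 0.432) in zdna1, which was not called (adjusted p = 0.126). The zdna4 libraries gave it 3 and 1 reads (CC) against 34 and 27 (CL), at 49.9 and 114 CPM over the pooled reads, with an interval of the ratio from 0.848 to 8.65. In zdna2 (10 against 12 reads, ratio 0.954) and zdna3 (8 against 11 reads, ratio 0.830) the intervals also included equality. Differences smaller than these intervals were not detectable at this depth.

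DNAJB1, the J-domain partner that hands clients to HSP70 (hg19 chromosome 19, 14625576 to 14640134, minus strand), ranged from 52.8 to 238 CPM, with a median of 124 CPM. Its lowest value came from 2 reads in a zdna4 CC library and its highest from a zdna3 CC library. The arms overlapped in all 4 numbers. No comparison called it, and its intervals were wide: the 95% interval of the arm difference ran from -0.66 to 0.66 in zdna1, and the estimate was 0.77 (-0.29 to 1.84) in zdna4. HSPH1, the HSP110 exchange factor of HSP70 (chromosome 13, 31709110 to 31736525, minus strand), ranged from 124 to 265 CPM. Its 2 CL libraries lay above both CC libraries in zdna1 (216 and 184 against 124 and 137 CPM), in zdna2 (188 and 200 against 146 and 153) and in zdna4 (234 and 219 against 189 and 132), and overlapped with them in zdna3. HSPH1 had 5 to 73 reads per library, and the share of all tested genes separated in this way was not counted. None of these differences was called, with 0.58 (adjusted p = 0.387) in zdna1 and 0.38 (interval 0.03 to 0.73, adjusted p = 0.491) on average. Nor did HSPH1 pass the test among the numbers (adjusted p = 0.839).

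HSP90 is the chaperone of kinases and steroid receptors, with a stress-responsive form, HSP90AA1 (hg19 chromosome 14, 102547079 to 102606086, minus strand), and a constitutive form, HSP90AB1 (chromosome 6, 44213903 to 44221625, plus strand). HSP90AA1 stood at 1064 and 958 CPM in zdna1 CC, 971 and 1065 in zdna1 CL, 1055 and 1176 in zdna2 CC, and 1375 and 1071 in zdna2 CL. In zdna3 it stood at 1462 and 1738 CPM in CC and 1299 and 1375 in CL. In zdna4 it stood at 837 and 555 CPM in CC and 1130 and 1090 in CL. The arms overlapped in zdna1 and zdna2, while CC lay above CL in zdna3 (a difference of -0.25 that was not called, or 0.56 on the deposited scale) and below it in zdna4. Neither HSP90 gene was called between the arms of any number. In zdna4 HSP90AA1 lay at 0.70 (SE 0.200, adjusted p = 0.0641) and HSP90AB1 at 0.39 (SE 0.142, adjusted p = 0.196). Of the 7 members tested in zdna4, limma called 0, edgeR 1 and DESeq2 0, where limma called 1.17% of genes. An unadjusted p under 0.05 was found for 4 of the 7, and for 483 of the 4632 tested genes. All 7 estimates were above 0 with a median of 0.55, where the median gene stood at 0.08.

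**Figure D4:**
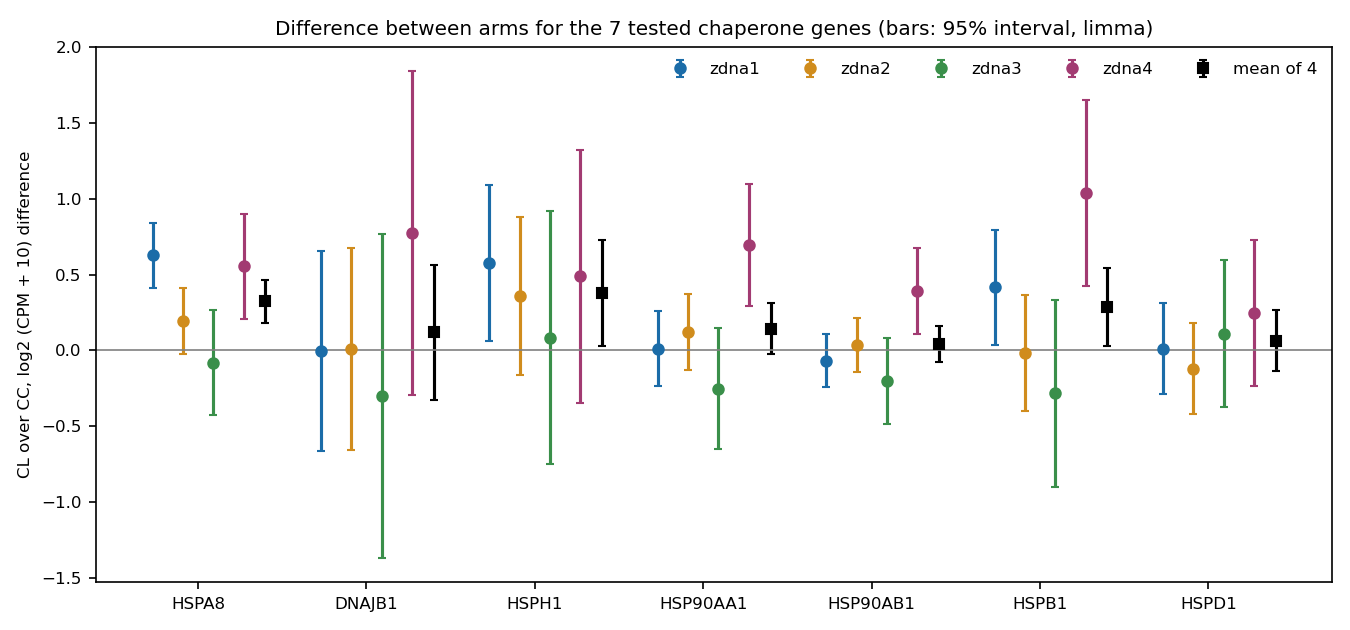
CL over CC difference in log2(CPM + 10) for the 7 tested members, by number (circles) and averaged over the numbers (black squares), with 95% intervals from limma. HSPA8 in zdna1 (0.63) and its average (0.32) were the called values; the zdna4 estimates all lie above 0, with wide intervals.

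Whether members were called in zdna4 changed with the scaling, the weights and the filter. HSPB1, HSP90AA1 and HSPA8 were called by library totals, on the deposited scale and without array weights. HSP90AB1 was called by library totals, on the deposited scale and without the filter, HSPA8 and HSP90AA1 without the filter, and HSP90AA1 also without zdna4 CC replicate 1 (1.02, adjusted p = 0.0479). The marker VIM also rose in zdna4 CL, by 0.68 (SE 0.169, adjusted p = 0.0322), and SPARC by 0.79 (SE 0.218, adjusted p = 0.0495). In zdna2 and zdna3, 0 of 7 members were called, against 0.173% and 0.0864% of genes, by limma as by edgeR and DESeq2. There the unadjusted p was under 0.05 for 0 members, and for 305 and 304 of the 4632 tested genes. The members' medians were 0.04 and -0.20, beside -0.01 and 0.06 for all tested genes.

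Among the numbers, 3 of 7 members were called (HSPA8, HSP90AA1 and HSPB1), where 8.85% of tested genes were. By mean CPM these ranked 32, 44 and 259 of the 4632 tested genes. HSP90AB1 (rank 13), HSPD1 (132), HSPH1 (1060) and DNAJB1 (1680) were not called. No share over all genes given here was matched for level. The members were chosen with earlier results of these data known, so their counts beside these shares are a description and no test. Without the filter HSP90AA1 (adjusted p = 0.0535) and HSPB1 (adjusted p = 0.134) lost this call, as did HSP90AA1 in CL alone (adjusted p = 0.159) and HSPB1 in CC alone (adjusted p = 0.254). In at least 1 of the 6 pairs of numbers 4 of 7 were called, against 11.7% of genes. The pairs share libraries and are not independent. HSP90AA1 (adjusted p = 4.65e-04 among the numbers) was higher in zdna3 than in zdna1 by 0.52 (SE 0.118, adjusted p = 0.00289) and lower in zdna4 than in zdna3, at -0.74 (SE 0.141, adjusted p = 3.28e-04), while on the deposited scale these differences were -1.12 and 0.86, or 0.36 and -0.52 relative to the median gene. The first was lost without zdna3 CC replicate 2 (adjusted p = 0.0739), without the filter and in either arm alone, and the second was called in CC alone (-1.21, adjusted p = 0.00322) but not in CL alone (-0.27, adjusted p = 0.272) or without the filter (adjusted p = 0.0548). In zdna3 over zdna2 it lay at 0.33 (adjusted p = 0.0888), called by edgeR and without zdna2 CL replicate 1 (adjusted p = 0.0345). In zdna4 over zdna2 it fell by 0.41 (adjusted p = 0.0407), a call that 13 of 19 alternatives lost. HSP90AA1 shares 7.79% of its exon bases with WDR20 on the other strand, and the counting used no strand.

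HSP90AB1 was the steadiest member, with 1770 to 3239 CPM over the 16 libraries, a range of 1.83-fold. It stood at 2660 and 2601 CPM in zdna1 CC and 2458 and 2554 in zdna1 CL, and its lowest value, 1770 CPM, was that of zdna4 CC replicate 2. It was called in none of the pairs of numbers, with differences from -0.23 to 0.13. Scaling by library totals called it in zdna4 over zdna2 (-0.31, adjusted p = 0.0170) and among the numbers (adjusted p = 0.0257). On the deposited scale it was called in zdna3 over zdna1, zdna3 over zdna2 and zdna4 over zdna3, at -1.52, -1.51 and 1.38, near the shifts of the median gene. For each pair the share of genes called was 2.5% for zdna2 over zdna1, 4.49% for zdna3 over zdna1, 0.691% for zdna4 over zdna1, 6% for zdna3 over zdna2, 2.48% for zdna4 over zdna2 and 4.75% for zdna4 over zdna3. The members called in these pairs numbered 1, 2, 0, 2, 3 and 2 of 7. In zdna4 over zdna1 no member reached an unadjusted p under 0.05, where 458 of the 4632 tested genes did, and edgeR and DESeq2 also called 0 members.

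HSPB1, the small heat shock protein HSP27 that holds unfolded proteins without using ATP (hg19 chromosome 7, 75931990 to 75933609, plus strand), was on average lowest in zdna2. It stood at 319 and 508 CPM in zdna1 CC, 461 and 634 in zdna1 CL, 251 and 321 in zdna2 CC, and 286 and 275 in zdna2 CL. In zdna3 it stood at 481 and 548 CPM in CC and 371 and 474 in CL, and in zdna4 at 324 and 343 CPM in CC and 663 and 728 in CL. The zdna2 libraries all lay at or below 321 CPM, a range that overlaps zdna1 through its CC replicate 1, and zdna4 CL lay highest and clear of zdna4 CC. The arm difference there was 1.04 (SE 0.307), which limma did not call (adjusted p = 0.0737) and edgeR did (adjusted p = 0.0196), while DESeq2 did not (adjusted p = 0.105). In zdna1 it was 0.42 (95% interval 0.04 to 0.80, adjusted p = 0.405).

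HSPB1 fell in zdna2 relative to zdna1 by 0.71 (SE 0.135, adjusted p = 5.46e-04). It was higher in zdna4 than in zdna2 by 0.75 (SE 0.181, adjusted p = 0.0117) and in zdna3 than in zdna2 by 0.70 (SE 0.181, adjusted p = 0.0104). On the deposited scale, though, the latter was -0.79, or 0.56 relative to the median gene. In CL alone the zdna2 over zdna1 difference was -0.92 (adjusted p = 6.34e-04) and the zdna4 over zdna2 difference 1.28 (adjusted p = 2.17e-08). In CC alone they were -0.49 (adjusted p = 0.662) and 0.22 (adjusted p = 0.945), neither called. Zdna4 CL also lay above zdna3 CL, by 0.71 (adjusted p = 0.0272). The zdna4 over zdna2 call was lost without the filter and without zdna2 CC replicate 1 (adjusted p = 0.0687), zdna4 CC replicate 1 (adjusted p = 0.10) or zdna4 CC replicate 2 (adjusted p = 0.115). The zdna3 over zdna2 call was lost without the filter, without zdna2 CC replicate 1 (adjusted p = 0.0607), zdna3 CC replicate 2 (adjusted p = 0.10) or zdna3 CL replicate 2 (adjusted p = 0.0822), and in either arm alone. The zdna2 over zdna1 call was kept without each single library and lost without the filter and without array weights (adjusted p = 0.0812).

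HSPD1 (HSP60; hg19 chromosome 2, 198351308 to 198364998, minus strand) and HSPE1 (HSP10; chromosome 2, 198365103 to 198368173, plus strand) form the folding chamber and lid of the mitochondrial chaperonin. HSPD1 lay between 449 and 860 CPM (median 654). Its zdna4 libraries held 513 and 449 CPM in CC and 567 and 576 in CL, and the other 12 libraries 570 CPM or more, so that zdna4 lay lowest with a slight overlap. It was lower in zdna4 than in zdna2 at -0.49 (SE 0.142, adjusted p = 0.0439), a call that 12 of 19 alternatives lost, among them the CL libraries alone (adjusted p = 0.106). The test among the numbers did not call it (adjusted p = 0.0655), while edgeR did (adjusted p = 0.0292), as did the fit without zdna1 CL replicate 1 (adjusted p = 0.0445). Its arm differences ran from -0.12 to 0.25 with none called. HSPE1 had 30 reads in all, 0 to 5 per library, and none in the 4 zdna3 libraries, where 0 reads allow up to 30.6 CPM in CC and 18.5 CPM in CL. No direction can be read from it. HSPD1 shares 4.92% of its exon bases with the small RNA genes SNORA105A and SNORA105B.

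Other genes of the same pathways were taken from 7 lists. These too were chosen with earlier results of these data known, so their counts beside the share over all genes are a description. Between the arms, 0 genes of any list were called in any number or on average, by limma or edgeR. These lists held HSF1 and its regulators (3 tested), other heat-inducible genes (12), cytosolic HSP70 co-chaperones (16), HSP90 co-chaperones (10), the cytosolic chaperonin TRiC with prefoldin (12), endoplasmic reticulum chaperones (14) and mitochondrial chaperones and proteases (12). In zdna1, where HSPA8 rose, genes with an unadjusted p under 0.05 numbered 0 among HSF regulators, 4 among heat-inducible genes, 1 among HSP70 and 0 among HSP90 co-chaperones, 3 for TRiC and prefoldin, 1 for the endoplasmic reticulum and 3 for mitochondria. Of all 4632 tested genes, 489 had such a p in zdna1. The lists' medians there ran from -0.13 for TRiC and prefoldin to 0.25 for the endoplasmic reticulum, beside 0.00 for all tested genes. HSF1 itself lay at 0.32 (SE 0.298, adjusted p = 0.749), STIP1, which joins HSP70 to HSP90, at 0.02 (adjusted p = 0.978), and HSPA4, an HSP110 relative of HSPH1, at -0.09 (adjusted p = 0.912).

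Among the numbers, 5 of 12 other heat-inducible genes were called, against 8.85% of all tested genes. ATF3, a stress-induced transcription factor, stood at 412 ± 76.6 CPM in zdna3 (mean ± SD, n = 4) against 98.5 ± 34.5 in zdna1. The difference of 2.01 (adjusted p = 1.75e-06) kept its sign on the deposited scale, at 0.44. SERPINH1, the collagen chaperone HSP47, was lower in zdna2 than in zdna1 at -0.82 (adjusted p = 0.0358) and higher in zdna4 than in zdna2 by 1.06 (adjusted p = 0.0449). Of the HSP70 co-chaperones 1 of 16 was called, the J-domain gene DNAJB2, at 107 to 243 CPM in zdna3 and 51.3 to 76.8 CPM in zdna1 (1.36, adjusted p = 0.00875, and -0.14 on the deposited scale). HSP90 co-chaperones, with STIP1 (489 CPM) and FKBP4 (364 CPM) the most abundant, had none called of 10, with 1 at an unadjusted p under 0.05 and 0 by edgeR. HSF regulators, with HSF1 (150 CPM) and its binding protein HSBP1 (80.1 CPM), had 0 of 3 called, again with 1 at an unadjusted p under 0.05 and 0 by edgeR. Of all 4632 tested genes, 1127 had an unadjusted p under 0.05 among the numbers.

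Called TRiC and prefoldin genes numbered 3 of 12 among the numbers, where 8.85% of all tested genes were called. CCT5, a TRiC subunit, was higher in zdna3 than in zdna1 by 0.55 (adjusted p = 0.00518), or -1.09 on the deposited scale. CCT8, another subunit, was lower in zdna3 than in zdna2 at -0.63 (adjusted p = 0.0329). TCP1 was higher in zdna2 than in zdna1 by 0.55 (adjusted p = 0.0265). The organelle lists had 1 called gene each, of 14 tested for the endoplasmic reticulum and 12 for mitochondria, no more than the share over all tested genes. CANX, the lectin chaperone calnexin, was lower in zdna3 than in zdna2 at -0.53 (adjusted p = 0.00894). HSPA9, the mitochondrial HSP70, was lower in the same comparison at -0.71 (adjusted p = 0.00404), against 0.91 for its cytosolic relative HSPA8. On the deposited scale, where the median gene moved by -1.36 in this comparison, CCT8, CANX and HSPA9 lay at -2.09, -2.04 and -2.19 and HSPA8 at -0.62. Relative to that median these 4 genes lay at -0.73, -0.68, -0.83 and 0.73. Of the bone and mesenchymal markers, FN1 and COL1A1 were also called among the numbers, and their part in the members' differences was not tested.

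Across the 8 group means, the members did not form 1 pattern. The highest correlations between members were those of HSP90AA1 with HSP90AB1 (Pearson's r = 0.917) and of HSPA8 with DNAJB1 (r = 0.828), and the lowest was that of HSPB1 with HSPD1 (r = -0.295). The mean of the tested members' centred log2(CPM + 10) was highest in zdna3 CC (0.34) and lowest in zdna4 CC (-0.40). Of 884 other genes of at least 200 CPM, those most like this mean over the 8 groups were S100A10 (r = 0.967), ADAR (0.944), GNAS (0.922), FLII (0.914) and SNORD3A (0.912). The groups share the libraries' depth and scaling, and these values are a description.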

How the data were processed

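The submitters' processing notes name Trim Galore 0.6.6, the aligner STAR, bedtools 2.29.2 and the builds hg19 and dm6. Per the file headers, exon reads of uniquely aligned pairs were counted per gene with featureCounts 2.0.1, with no strand option, and a folder name holds the word spikein. The deposited values are a scaled signal, not whole numbers: in each library they are whole multiples of 1 step (0.115 to 0.802). Dividing by it recovered reads within 0.1 read for 99.99% to 100% of values in each library. How the authors set the step is not given in the sources used here.

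Reads were tested with limma 3.58.1 on log2(CPM + 10), scaled by TMM (edgeR 4.0.16), for the 4632 genes of at least 50 CPM on average. The fit held 8 group means, array weights per group and a mean-variance trend, with Benjamini-Hochberg adjustment at 0.05 per comparison; tests were two-sided. The edgeR quasi-likelihood test and DESeq2 1.42.0 on recovered reads, other scalings, filters and left-out libraries were alternatives. The fit was tested on simulated data. Fits without 1 library kept the array weights of the full fit, so a lone library was assumed to vary like its group.

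All 10 members are named. From the pathway lists, names were the smallest p among called genes, and the most abundant genes where none was called; gene patterns were ranked by correlation over the group means. 1 gene that this rule picks is not reported here. Members and lists were chosen with earlier results of these data known. Replicates of zdna1 CC, zdna2 CL and zdna3 CC did not differ beyond counting noise by chi-square (p = 0.0992, 0.281 and 0.744). In the other groups the chi-square p ran from 0.00217 to 0.048. Chi-square over its degrees of freedom was 0.981 to 1.10 in all 8 groups, so replicates varied little beyond counting. But all 8 replicate pairs differed in the share of the added sequence (p at most 0.00181), so they were kept as 2 libraries. Several members have processed pseudogenes; HSP90AB4P had 8 reads in all. Intervals and floors (3 reads) cover counting error only: no molecular identifiers were counted, so reads may repeat a molecule.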

Additional observations from a re-analysis of the deposited data

How the results depend on the processing

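Depth limits the low members: DNAJB1 fell to 2 reads in 1 library, and HSPA1A, HSPA1B and HSPE1 were not tested. Over 1771 recomputed values of members, 1654 kept direction and side of the threshold or changed sign with neither value called (89 of them), 53 lost and 43 gained a call, and 21 reversed, all 21 on the deposited scale. There, CL over CC in zdna3 was 0.74 for HSPA8, 0.56 for HSP90AA1 and 0.62 for HSP90AB1. For zdna3 over zdna1 it gave -0.80 for HSPA8, -1.08 for DNAJB1, -1.30 for HSPH1, -1.12 for HSP90AA1, -1.52 for HSP90AB1 and -1.48 for HSPD1. For zdna3 over zdna2 it gave -0.62 for HSPA8, -0.64 for DNAJB1, -1.26 for HSPH1, -1.20 for HSP90AA1, -1.51 for HSP90AB1 and -0.79 for HSPB1. For zdna4 over zdna3 it gave 0.81 for HSPA8, 0.98 for DNAJB1, 1.47 for HSPH1, 0.86 for HSP90AA1, 1.38 for HSP90AB1 and 1.18 for HSPD1. The shift of the median gene, given above, has the same sign in each.

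Members called on the deposited scale numbered 4 in zdna3, 4 in zdna4, 6 on average over the numbers, 2 in the test that arm differences are equal, 7 among the numbers and 7 in the pairs. By library totals they were 4 in zdna4 and 5 among the numbers. By edgeR they were 1 in zdna4 and 1 in the test of equal arm differences. Without the filter they were 3 in zdna4, 1 among the numbers and 1 in the pairs. That setting tested 21613 genes and also took the TMM scaling factors over them. The differences in zdna4 themselves moved, for HSPA8 from 0.55 to 1.03 and for HSP90AB1 from 0.39 to 0.87. Without array weights 3 members were called in zdna4. Without the zdna4 libraries the average had 0. Within CL alone and CC alone, chosen after seeing the data, 2 and 2 members were called in the pairs. Leaving out 1 library gave 1 member in zdna1, 0 to 1 in zdna4, 0 to 1 on average, 3 to 4 among the numbers and 3 to 4 in the pairs, and 0 elsewhere.

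The counts of all genes called were 35 in zdna1, 8 in zdna2, 4 in zdna3, 54 in zdna4, 20 on average, 40 for unequal arm differences, 410 among the numbers and 541 in the pairs. DESeq2 gave 16 in zdna1, 3 in zdna2, 28 in zdna4, 223 among the numbers and 291 in the pairs. No array weights gave 10, 0, 8 and 122 in zdna1 to zdna4 and 13 on average. The deposited scale gave 5 in zdna2, 1049 in zdna3, 212 in zdna4, 1019 on average, 337 for unequal differences, 4386 among the numbers and 4538 in the pairs. No filter gave 0 in zdna3, 121 in zdna4, 12 for unequal differences, 135 among the numbers and 267 in the pairs. A pseudocount of 2 gave 22 in zdna4 and 10 on average, and the zdna4 libraries alone gave 17. Without zdna4 the average had 5 and unequal differences 21. CL alone gave 662 among the numbers and 813 in the pairs, and CC alone 63 and 110. Leaving out 1 library gave 10 to 45 in zdna1, 4 to 10 in zdna2, 0 to 33 in zdna3, 31 to 47 in zdna4, 10 to 27 on average, 25 to 50 for unequal differences, 292 to 397 among the numbers and 352 to 515 in the pairs. The cause of these changes between settings was not tested. Over tested genes alone, the members' share of reads was 0.729% and 0.798% in zdna1 CC and CL, 0.782% and 0.820% in zdna2, 1.02% and 0.897% in zdna3, and 0.623% and 0.868% in zdna4, since the denominator is smaller.

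The replicate numbers did not pair the libraries: over 28 pairs of libraries the correlations of deviations ran from -0.0703 to 0.0589. With a replicate block 34, 7, 3 and 47 genes were called in zdna1 to zdna4, 17 on average, 37 for unequal differences, 391 among the numbers and 531 in the pairs, and no count of members called changed.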
